A study of Mus musculus with 6 samples.

Results

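The genes described here encode phosphatases, inhibitory receptors and adaptors that act on signals from the B cell receptor. They are 10 of the 24346 gene symbols measured, and each was found by its exact symbol: Ptpn6, Ptprc, Inpp5d and Ptpn22 for the phosphatases, Cd22, Siglecg, Cd72 and Pirb for the receptors, and Samsn1 and Sh3bp2 for the adaptors. RNA was sequenced from 3 libraries of IgG1 plasma cells and 3 libraries of IgM plasma cells sorted from mouse spleen. All 6 libraries came from B1-8germ B cells, which carry a germline knock-in heavy chain for the hapten NP and a congenic mark, transferred into wild-type C57BL/6J hosts. The hosts received NP-CGG in alum on day 0, and donor plasma cells were sorted by isotype on day 7. Both groups thus share the knock-in heavy chain, the immunisation and the time. The hosts kept their own B cells. The labels name neither the age of the animals nor the congenic marker, nor do they say whether separate animals gave the libraries of a group, so a p-value here covers only library-to-library spread, part of which may be technical.

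The 10 genes were chosen by function and by their FPKM in these same IgG1 and IgM libraries, which were already known. The differences of the 10 genes between the groups are therefore given as a description, with fold changes and their errors but without p-values. A gene is said to be called where its adjusted p was under 0.05 in a limma fit over all 9087 genes that had an FPKM (fragments per kilobase of transcript, scaled to library size) of at least 1 in at least 3 libraries. Log2 fold changes are of FPKM + 1, IgG1 minus IgM, with limma's standard error (SE), and group means are in FPKM ± SD with n = 3 libraries per group.

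When antigen binds the B cell receptor, Src-family kinases phosphorylate its signalling chains and also tyrosines in the inhibitory motifs (ITIMs) of neighbouring receptors such as CD22, Siglec-G, CD72 and PIR-B. These recruit SHP-1, the tyrosine phosphatase encoded by Ptpn6, or SHIP-1, the lipid phosphatase encoded by Inpp5d, which oppose the kinases and phosphoinositide 3-kinase. CD45, encoded by Ptprc, removes the inhibitory phosphate from Src-family kinases and so permits signalling. Plasma cells shut down much of the B cell programme, and IgM plasma cells are known to keep more surface receptor than IgG plasma cells do.

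Of the 10 genes, 4 were called and all 4 were lower in IgG1 plasma cells: Ptpn6, Ptprc, Samsn1 and Sh3bp2, whose mean FPKM were 5.11-fold, 2.97-fold, 7.72-fold and 6.14-fold lower than in IgM plasma cells. Inpp5d, Ptpn22 and Siglecg were not called, and 0 genes were called higher with limma (0 also at an unadjusted p under 0.05). In sorted bulk cells, fewer cells that express a gene and less RNA per cell cannot be told apart. Cd22, Cd72 and Pirb were under the expression filter, so 7 genes were tested. Over all tested genes 1.76% were called lower, 4.26% higher and 6.02% in either direction. The median log2 fold change was -1.74 over the 7 tested genes and -0.046 over all 9087. Since the 7 were chosen with this contrast known, nothing is read from that difference.

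**Figure D1:**
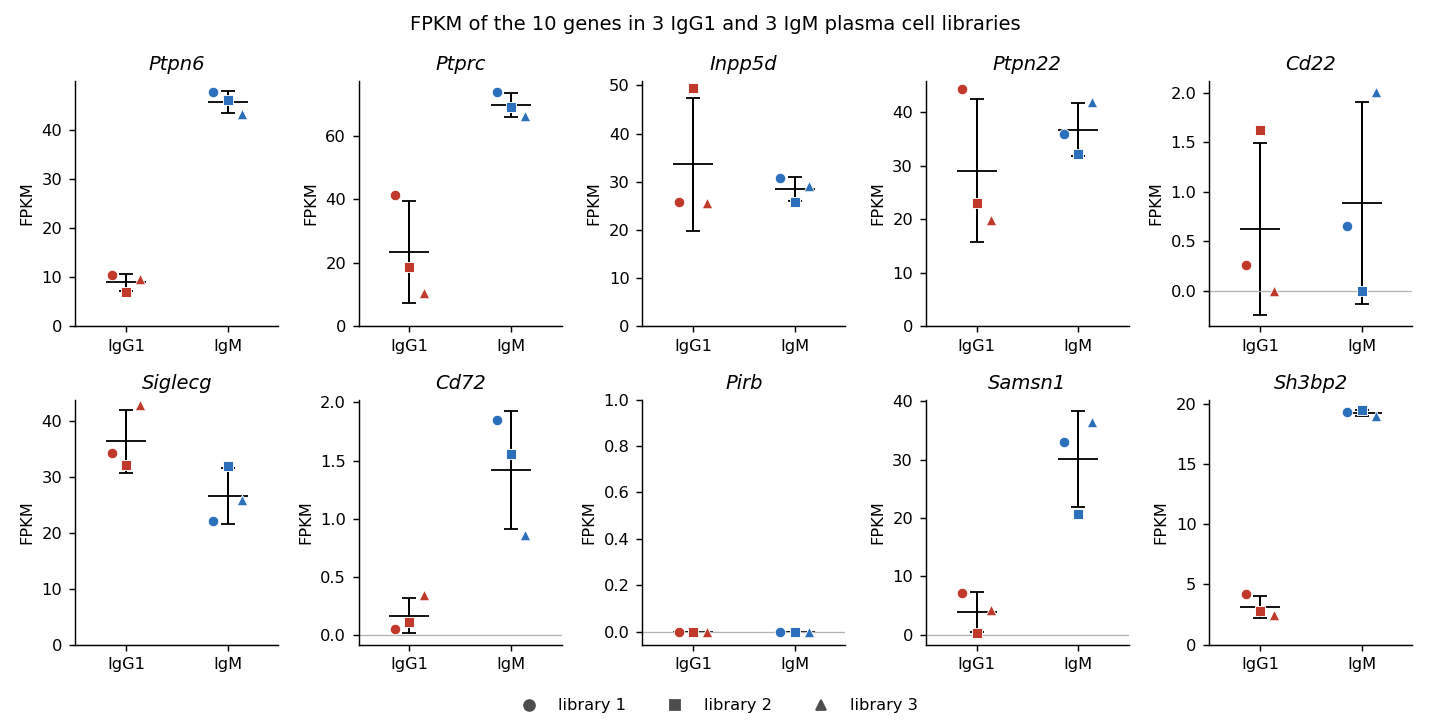
FPKM of each of the 10 genes (vertical axes, each with its own scale) in 3 IgG1 and 3 IgM plasma cell libraries. Symbols mark the library number, horizontal bars the group mean and error bars the SD. Ptpn6, Ptprc, Samsn1, Sh3bp2 and Cd72 (not tested, about 1 to 8 fragments in IgG1 libraries) lay lower in every IgG1 library than in any IgM library. Siglecg lay higher in every IgG1 library, and Pirb was listed at 0 in all 6. Over all tested genes the shares with every IgG1 library below and above were 13.5% and 13.7%.

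Sequences before a listed start of Ptpn6, Ptprc, Samsn1 and Sh3bp2 are shown because these were the 4 called genes of the 10, all lower in IgG1 cells. Each is the 250 bases before the RefSeq start listed first for the gene (GRCm38.p6, the assembly mm10 names), read on the gene's own strand. The start used in these cells was not measured. The windows of Ptprc, Samsn1 and Sh3bp2, and that of Cd22, lie inside the spans GENCODE vM21 gives for these genes. Samsn1 spans 75858793 to 76022281 and Sh3bp2 34525838 to 34563641, so their windows are far from the outermost start. Capitals mark GGAAGT or its reverse complement ACTTCC, a core bound by ETS-family factors, a motif picked after these sequences had been read.
Ptpn6, chr6:124738710-124738959, minus strand: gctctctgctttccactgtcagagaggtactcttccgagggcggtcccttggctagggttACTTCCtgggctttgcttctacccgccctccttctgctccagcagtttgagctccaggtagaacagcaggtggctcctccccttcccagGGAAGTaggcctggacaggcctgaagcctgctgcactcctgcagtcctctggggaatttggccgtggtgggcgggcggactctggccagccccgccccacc
Ptprc, chr1:138175306-138175555, minus strand: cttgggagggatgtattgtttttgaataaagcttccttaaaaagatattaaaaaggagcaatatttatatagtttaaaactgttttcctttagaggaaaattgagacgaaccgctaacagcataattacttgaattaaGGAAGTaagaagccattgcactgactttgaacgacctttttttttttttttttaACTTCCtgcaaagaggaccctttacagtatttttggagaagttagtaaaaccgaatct
Samsn1, chr16:75909267-75909516, minus strand: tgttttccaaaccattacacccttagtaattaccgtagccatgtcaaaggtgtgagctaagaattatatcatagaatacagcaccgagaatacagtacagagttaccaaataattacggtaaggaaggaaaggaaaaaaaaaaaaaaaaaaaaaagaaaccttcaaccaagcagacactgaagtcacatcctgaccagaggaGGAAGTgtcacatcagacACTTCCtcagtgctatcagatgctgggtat
Sh3bp2, chr5:34543115-34543364, plus strand: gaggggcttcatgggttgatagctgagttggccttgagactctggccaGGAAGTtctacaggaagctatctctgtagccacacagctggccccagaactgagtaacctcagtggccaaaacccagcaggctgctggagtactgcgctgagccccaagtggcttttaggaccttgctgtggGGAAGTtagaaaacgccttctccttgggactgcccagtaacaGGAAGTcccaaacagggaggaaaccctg
The motif occurred 2 times in the Ptpn6, Ptprc and Samsn1 windows and 3 times in that of Sh3bp2. It also occurred 2 times upstream of Ptpn22 and 1 time each upstream of Inpp5d, Cd72 and Pirb, and not in the Cd22 and Siglecg windows. It was thus in 8 of the 10 windows, genes that were not lower included, and in 19.99% of the 27025 first-listed windows of all genes. Since the motif was picked from these same windows, nothing is read from that difference. Before the second listed starts of Ptprc, Ptpn22, Siglecg and Sh3bp2 it occurred 1, 0, 0 and 1 times. The letters GNGAAAG on either strand, which resemble the binding motif of the plasma cell repressor BLIMP-1, were in 2 of the 10 windows (Ptpn22 and Siglecg) and in 19.36% of all windows. The 2 motifs did not overlap in these windows.

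Ptpn6 had 10.3, 6.92 and 9.50 FPKM in IgG1 libraries 1 to 3, against 47.6, 46.0 and 43.1 FPKM in IgM libraries 1 to 3. The highest IgG1 library was thus far below the lowest IgM library, and the libraries within each group lay close together. The means were 8.91 ± 1.77 FPKM in IgG1 and 45.6 ± 2.28 FPKM in IgM cells, a log2 fold change of -2.25 (SE 0.24). Of the 160 genes called lower, 14 had a log2 fold change this low or lower, Ptpn6 included. In IgG1 cells 42.4% of tested genes had a lower mean FPKM than Ptpn6, and in IgM cells 77.0% had. Ptpn6 lies on chromosome 6 from 124720707 to 124738714 (GENCODE vM21), and its exons overlap the antisense transcript Gm20531. The sources used here do not say whether counting used strand, so reads of the pair cannot be told apart.

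Ptprc had 41.5, 18.6 and 10.5 FPKM in IgG1 libraries 1 to 3, against 74.1, 69.3 and 66.5 FPKM in IgM libraries 1 to 3. The groups did not overlap, but the IgG1 libraries spread widely, with a coefficient of variation of 68.5% in IgG1 against 5.49% in IgM. The means were 23.5 ± 16.1 FPKM and 69.9 ± 3.84 FPKM in IgG1 and IgM cells, with a log2 fold change of -1.74 (SE 0.36). The call was lost without IgG1 library 2 or without any 1 of the 3 IgM libraries, and the estimate was -2.24 without IgG1 library 1 and -1.30 without IgG1 library 3. Ptprc has the longest median transcript of the 10 genes, 4702 nt against a median of 2488 nt over tested genes. Long transcripts were relatively low in the IgG1 libraries. The Spearman correlation over 8765 genes of a gene's deviation from its own mean with transcript length was -0.15, -0.18 and -0.24 in IgG1 libraries 1 to 3, against 0.30, 0.15 and 0.29 in IgM libraries 1 to 3. Once the trend of each library with length and GC content was taken out, Ptprc was at -1.38 (SE 0.33) and fell just short of a call. With the library number added to that fit as a block, it was again at -1.38 (SE 0.27) and was called. Ptprc is also a common locus for congenic marking in mice, and which marker the donors carried was not analysed here.

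The other phosphatase genes had overlapping groups. Inpp5d had 25.7, 49.4 and 25.6 FPKM in IgG1 libraries 1 to 3, against 30.7, 25.7 and 29.1 FPKM in IgM libraries 1 to 3. IgG1 library 2 stood above the rest, and the other two IgG1 libraries lay at the level of the lowest IgM library. The log2 fold change was 0.16 (SE 0.26, 95% interval -0.41 to 0.73). It was -0.14 without IgG1 library 2 and -0.061 when the libraries were rescaled to the same sum without Jchain, so its direction depends on these choices.

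Ptpn22, which encodes a phosphatase that acts on Src-family and Syk-family kinases in lymphocytes, had 44.4, 23.0 and 19.8 FPKM in IgG1 libraries 1 to 3 and 35.99, 32.2 and 42.0 FPKM in IgM libraries 1 to 3. IgG1 library 1 held the highest value and the other two IgG1 libraries the lowest values of the 6. The log2 fold change was -0.41 (SE 0.28, 95% interval -1.01 to 0.20), and these data do not show that the groups were alike.

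Among the inhibitory receptors, Siglecg was the only 1 above the filter. Siglec-G binds sialic acids and restrains receptor signalling, chiefly in B-1 cells in the mouse. It had 34.2, 32.2 and 42.8 FPKM in IgG1 libraries 1 to 3, against 22.04, 32.0 and 25.9 FPKM in IgM libraries 1 to 3. Every IgG1 library was above every IgM library, but by a margin of less than 1 FPKM between IgG1 library 2 and IgM library 2. The means were 36.4 ± 5.64 FPKM in IgG1 and 26.7 ± 5.01 FPKM in IgM cells, and the log2 fold change of 0.44 (SE 0.22, 95% interval -0.03 to 0.91) was not called. All 7 tested genes together gave 4 with every IgG1 library below every IgM library and 1 with every IgG1 library above. Over all tested genes these shares were 13.5% and 13.7%, or 27.2% in either direction.

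Cd22, a sialic acid-binding receptor that recruits SHP-1, was low and varied widely within both groups. It had 0.260, 1.62 and 0 FPKM in IgG1 libraries 1 to 3 and 0.656, 0 and 2.00 FPKM in IgM libraries 1 to 3. By an approximate estimate of depth these correspond to about 15, 88 and 0 fragments in the IgG1 libraries and 39, 0 and 131 fragments in the IgM libraries. Each group held a library listed at 0, and the groups overlapped. Its exons overlap those of the antisense transcript Gm29439.

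Cd72, a C-type lectin-like receptor that binds the semaphorin CD100, had 0.0514, 0.118 and 0.343 FPKM in IgG1 libraries 1 to 3, against 1.85, 1.56 and 0.859 FPKM in IgM libraries 1 to 3. The groups did not overlap. At these levels the values correspond to about 1, 2 and 8 fragments in the IgG1 libraries and 43, 36 and 22 fragments in the IgM libraries, by an approximate estimate of depth. In the fit without the filter the log2 fold change was -1.03 (95% interval -1.56 to -0.51), and Cd72 was not called. Its exons overlap those of the protein-coding gene Tesk1 on the opposite strand. Tesk1 had 1.91, 0.378 and 6.66 FPKM in IgG1 libraries 1 to 3, against 0.506, 0.232 and 0.349 FPKM in IgM libraries 1 to 3.

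Pirb, which encodes an inhibitory receptor of myeloid and B cells for MHC class I, was listed at 0 in all 6 libraries. Its sequence is close to that of the activating Pira genes, between which reads can be split. Of these, Pira1, Pira4, Pira6, Pira7 and Pira11 were also listed at 0 in all 6, and Pira2 reached 1.25 FPKM in IgG1 library 2 and 0.0347 FPKM in IgM library 2.

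The adaptors were lower in IgG1 cells. Samsn1 encodes an SH3 and SAM domain adaptor (HACS1) that dampens B cell responses. It had 7.19, 0.233 and 4.29 FPKM in IgG1 libraries 1 to 3, against 33.1, 20.8 and 36.5 FPKM in IgM libraries 1 to 3. The groups were well apart, and IgG1 library 2 held almost no Samsn1, about 7 fragments against 210 and 126 in IgG1 libraries 1 and 3. The means were 3.90 ± 3.49 FPKM in IgG1 and 30.1 ± 8.28 FPKM in IgM cells, with a log2 fold change of -3.01 (SE 0.58). Of the genes called lower, 3 had a fold change this low or lower, Samsn1 included. Without IgG1 library 2 it was -2.20 and still called. The call was lost without IgM library 1 (-2.92) or IgM library 3 (-2.86). Such single-library gaps were more frequent in IgG1. Tested genes under 1 FPKM in a library while the other two of its group had at least 4 FPKM numbered 13, 47 and 73 in IgG1 libraries 1 to 3, against 5, 9 and 8 in IgM libraries 1 to 3.

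Sh3bp2 encodes 3BP2, an adaptor that binds Syk, Vav and phospholipase C gamma and promotes signalling downstream of the B cell receptor. It had 4.17, 2.78 and 2.46 FPKM in IgG1 libraries 1 to 3, against 19.3, 19.5 and 19.0 FPKM in IgM libraries 1 to 3. The IgM libraries were nearly identical (coefficient of variation 1.22%) and all IgG1 libraries were far below them. The means were 3.14 ± 0.909 FPKM in IgG1 and 19.3 ± 0.234 FPKM in IgM cells, with a log2 fold change of -2.31 (SE 0.32). Ptpn6 and Sh3bp2 stayed called when any 1 library was left out, at -2.35 to -2.09 and -2.49 to -2.20. Once that trend was taken out, Ptpn6 (-2.31), Sh3bp2 (-2.31) and Samsn1 (-2.87) stayed called.

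**Figure D2:**
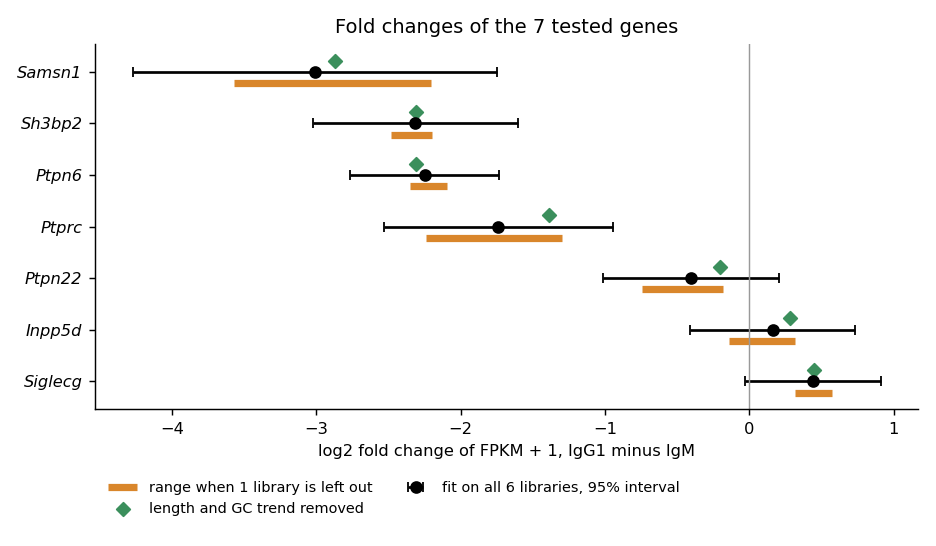
Log2 fold change of FPKM + 1 (horizontal axis, IgG1 minus IgM) for the 7 tested genes. Black points and lines give the fit on 6 libraries with its 95% interval, orange bars the range of estimates when 1 library is left out, and green diamonds the estimate with the length and GC trend removed. The ranges of Samsn1, Sh3bp2, Ptpn6 and Ptprc stayed below 0, and that of Inpp5d (-0.14 to 0.32) crossed it.

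**Figure D3:**
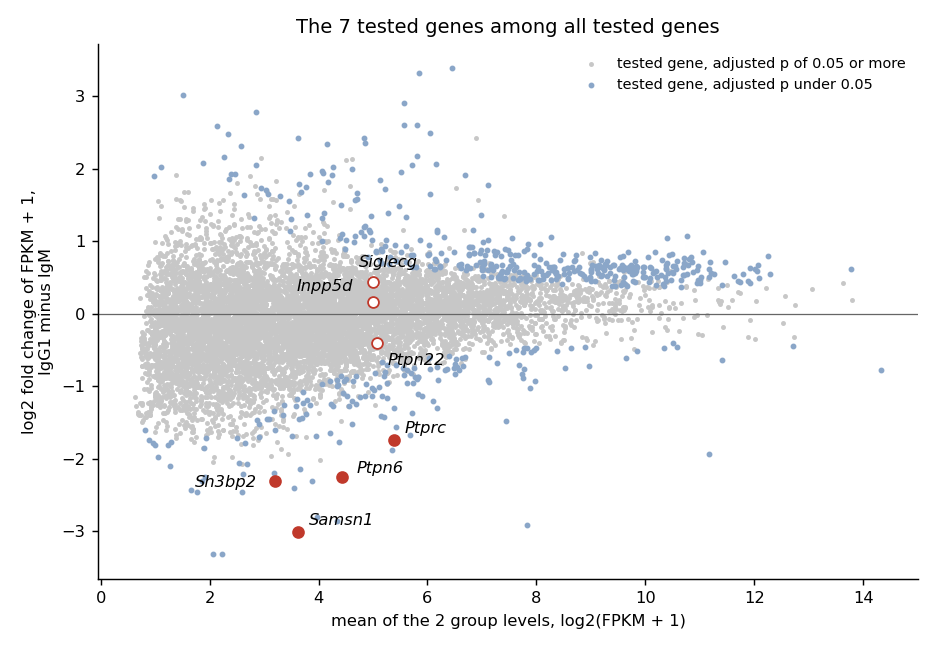
Log2 fold change (vertical axis, IgG1 minus IgM) against the mean of the group levels as log2(FPKM + 1) for 9087 tested genes. Blue points were called, filled red circles are the called genes among the 7 and open red circles the others. Samsn1, Sh3bp2, Ptpn6 and Ptprc lie at the lower edge of the cloud, while Siglecg, Inpp5d and Ptpn22 lie inside it at a similar level.

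In GENCODE vM21 on GRCm38, the phosphatase genes other than Ptpn6 are Ptprc on chromosome 1 (138062861 to 138175708, minus strand), Inpp5d on chromosome 1 (87620312 to 87720507, plus strand) and Ptpn22 on chromosome 3 (103859795 to 103912247, plus strand). The receptor genes are Cd22 on chromosome 7 (30865402 to 30880342, minus strand), Siglecg on chromosome 7 (43408204 to 43418358, plus strand), Cd72 on chromosome 4 (43446462 to 43454628, minus strand) and Pirb on chromosome 7 (3711409 to 3720391, minus strand). The adaptor genes are Samsn1 on chromosome 16 (75858793 to 76022281, minus strand) and Sh3bp2 on chromosome 5 (34525838 to 34563641, plus strand). The called genes are thus on 4 different chromosomes.

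The order of the genes by mean FPKM, which is per transcript length, differed between the groups. In IgG1 cells Siglecg (36.4), Inpp5d (33.6), Ptpn22 (29.1) and Ptprc (23.5) came first, and the ranges of neighbours in this order overlapped. Ptpn6 (8.91), Samsn1 (3.90) and Sh3bp2 (3.14) followed, with overlap between Ptpn6 and Samsn1 and between Samsn1 and Sh3bp2. The lowest were Cd22 (0.627), Cd72 (0.171) and Pirb. In IgM cells Ptprc (69.9) was highest, then Ptpn6 (45.6), each above all values of the next gene. Ptpn22 (36.7), Samsn1 (30.1), Inpp5d (28.5) and Siglecg (26.7) overlapped with their neighbours. Sh3bp2 (19.3), Cd72 (1.42), Cd22 (0.886) and Pirb came last, with overlap between Cd72 and Cd22.

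Within a library, the balance between the phosphatases differed accordingly. The FPKM ratio of Inpp5d to Ptpn6 was 2.49, 7.14 and 2.69 in IgG1 libraries 1 to 3, against 0.644, 0.559 and 0.675 in IgM libraries 1 to 3. SHIP-1 transcripts thus exceeded SHP-1 transcripts in every IgG1 library and were fewer in every IgM library. The ratio of Siglecg to Ptpn6 was 3.32, 4.65 and 4.50 in IgG1 and 0.463, 0.695 and 0.602 in IgM libraries 1 to 3. The ratio of Sh3bp2 to Ptpn6 was 0.405, 0.402 and 0.259 in IgG1 and 0.406, 0.423 and 0.441 in IgM libraries 1 to 3, so these genes kept nearly the same proportion in 5 of 6 libraries. The ratio of Ptprc to Ptpn6 was 4.03, 2.68 and 1.104 in IgG1 libraries and 1.56, 1.51 and 1.54 in IgM libraries 1 to 3. The sum of the 10 genes was 168, 135 and 115 FPKM in IgG1 and 265, 247 and 265 FPKM in IgM libraries 1 to 3.

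**Figure D4:**
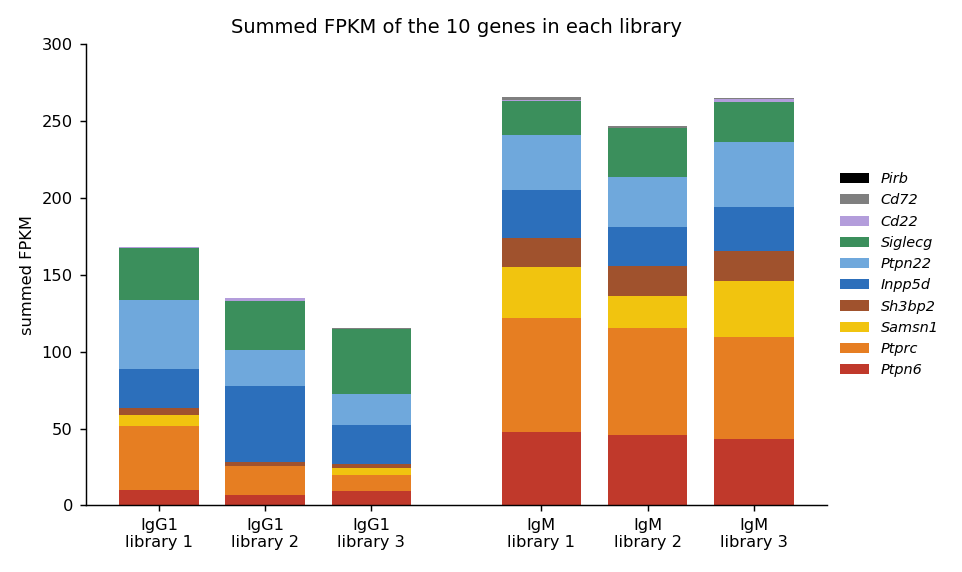
Summed FPKM of the 10 genes (vertical axis) in each IgG1 and IgM library, stacked by gene. The sums were 115 to 168 FPKM in IgG1 and 247 to 265 FPKM in IgM libraries, and the segments of Ptpn6, Ptprc, Samsn1 and Sh3bp2, at the bottom of each bar, were smaller in every IgG1 library.

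The tested genes outside the 10 with the profile most like that of Ptpn6 over the 6 libraries were Txndc5, Rab26, Gpr171, Zfp82 and Acsl1. Likeness was the root mean square difference between log2(FPKM + 1) profiles, each centred on its own mean, and was 0.21, 0.22, 0.23, 0.26 and 0.26. Among the 10, Sh3bp2 was nearer still at 0.18, followed by Ptprc at 0.58 and Samsn1 at 0.81. Gpr171, which encodes a G protein-coupled receptor, had 5.95, 3.33 and 7.79 FPKM in IgG1 libraries 1 to 3, against 28.7, 37.3 and 27.5 FPKM in IgM libraries 1 to 3. Txndc5 was far higher, at 1117 to 1258 FPKM in IgG1 and 4201 to 4690 FPKM in IgM libraries. Rab26, Zfp82 and Acsl1 had at most 0.513, 0.954 and 0.0647 FPKM in IgG1 libraries, and at most 5.28, 8.15 and 3.73 FPKM in IgM libraries. At such low levels the added 1 FPKM shrinks differences, so their likeness to Ptpn6 depends on it.

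Of the other genes of the pathway, in 6 lists of 137 distinct genes, 102 were tested. Of these 2 were called higher and 3 lower, against 4.26% higher and 1.76% lower over all tested genes. The split depended on the scaling, with 2 higher and 8 lower after rescaling without Jchain and 1 higher and 6 lower under quantile normalization. Among 8 tested receptors with related inhibitory or switch motifs, Slamf7 was lower (113 ± 19.6 FPKM in IgG1 and 170 ± 9.46 FPKM in IgM cells, log2 fold change -0.60, limma adjusted p = 0.0405) and 0 were higher, with a median of -0.065. Slamf7 was called in 1 of the 6 fits that left out a library. SLAMF7 is a plasma cell surface receptor that signals through switch motifs rather than ITIMs. The Fc receptor gene Fcgr2b, the main ITIM receptor for immune complexes on B-lineage cells, was at 86.8 ± 25.8 FPKM in IgG1 and 93.7 ± 6.03 FPKM in IgM cells (-0.16, 95% interval -0.61 to 0.30).

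Of 18 other tested phosphatases and their partners, 1 was higher and 1 lower, with a median of -0.082. The higher gene was Ptpn18, which encodes a PEST-type tyrosine phosphatase. It had 82.3 ± 10.4 FPKM in IgG1 and 40.1 ± 2.37 FPKM in IgM cells (log2 fold change 1.01, SE 0.16, limma adjusted p = 0.0067) and was called without any 1 library, but not with the length and GC trend removed (0.59). Ptpn11, which encodes SHP-2, the close relative of SHP-1, was at 6.98 ± 1.53 FPKM in IgG1 and 14.0 ± 1.59 FPKM in IgM cells (-0.92, limma adjusted p = 0.102). Ptprcap, which encodes a CD45-associated protein, was at 297 ± 43.6 FPKM in IgG1 and 242 ± 21.4 FPKM in IgM cells and was not called (0.29).

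With limma 0 of 12 other negative regulators and 0 of 26 other SH2 and SH3 adaptors were called, with medians of -0.12 and -0.09. Uncalled genes are not shown to be unchanged, since the fit recovered 12% of log2 changes of 0.5 in simulated data. At an unadjusted p under 0.05 these lists held 0 higher and 3 lower, and 1 higher and 4 lower. The highest negative regulators were Cd24a, a Siglec-G ligand also in the ligand list (489 ± 22.1 FPKM in IgG1 and 432 ± 4.77 FPKM in IgM cells) and Lax1 (254 ± 5.95 and 299 ± 7.71 FPKM in IgG1 and IgM cells), a membrane adaptor that limits receptor signalling. The highest adaptors were Blnk, the scaffold for Btk and phospholipase C gamma (390 ± 45.1 and 327 ± 31.6 FPKM in IgG1 and IgM cells), and the membrane adaptor Lat2 (102 ± 17.4 and 93.7 ± 6.91 FPKM in IgG1 and IgM cells).

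Of 23 tested genes of the receptor complex, its co-receptor and its kinases, 1 was higher and 0 lower (median -0.17; 3 higher and 3 lower at an unadjusted p under 0.05). That gene was Cd79b, a signalling chain of the receptor, at 1378 ± 152 FPKM in IgG1 and 885 ± 68.9 FPKM in IgM cells (log2 fold change 0.64, limma adjusted p = 0.00909). It was called without any 1 library, but not under quantile normalization (0.28, limma adjusted p = 0.0651). The co-receptor component Cd81 was at 628 ± 12.9 FPKM in IgG1 and 663 ± 51.2 FPKM in IgM cells. Of 16 genes on the ligand side of CD22, Siglec-G and CD72, St6gal1 was lower and 0 were higher (median -0.27; 0 higher and 4 lower at an unadjusted p under 0.05). St6gal1 makes the alpha-2,6-linked sialic acid that CD22 binds. It was at 164 ± 20.9 FPKM in IgG1 and 334 ± 28.2 FPKM in IgM cells (-1.03, SE 0.13, limma adjusted p = 0.00389), and was called without any 1 library. Exons of Slamf7, Fcgr2b, Ptpn18, Ptprcap, Lat2, Cd81 and St6gal1 overlap transcripts of the opposite strand, with the same limit as for Ptpn6.

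**Figure D5:**
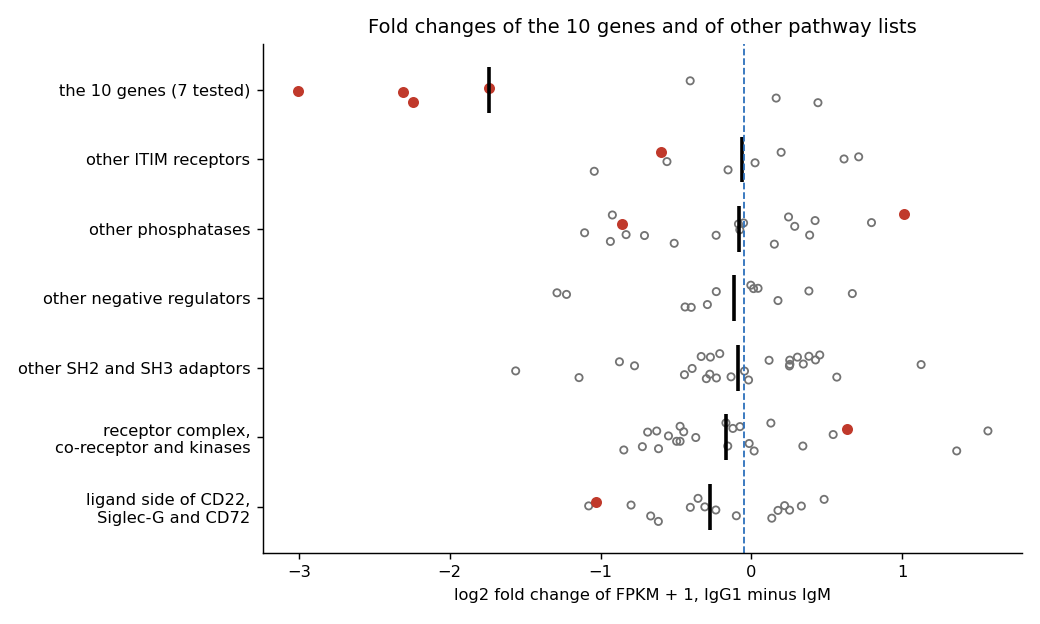
Log2 fold changes (horizontal axis, IgG1 minus IgM) of the tested members of the 10 genes and of 6 lists of other pathway genes. Filled red points were called, open points were not, black bars are list medians and the dashed line is the median of all tested genes (-0.046). Calls numbered 4 among the 7 tested of the 10 genes and 5 among 102 tested genes of the 6 lists, against 6.02% of all tested genes. The 10 were chosen with this contrast known, so nothing is read from that difference.

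The sum of 10 plasma cell markers was 41260 to 43610 FPKM in IgG1 and 47870 to 54170 FPKM in IgM libraries, led by Jchain, Mzb1, Xbp1 and Creld2. Of the 10, 5 were called lower and 0 higher, against 1.76% and 4.26% of all tested genes. The lower ones are named after their values were seen: Jchain, Tnfrsf17, Prdm1, Irf4 and Slamf7. Tnfrsf17, which encodes the survival receptor BCMA, had 67.4, 81.3 and 97.0 FPKM in IgG1 libraries 1 to 3, against 568, 713 and 587 FPKM in IgM libraries 1 to 3 (log2 fold change -2.92, limma adjusted p = 1.23e-06). Prdm1, which encodes BLIMP-1, had 25.9, 18.5 and 19.5 FPKM in IgG1 libraries 1 to 3, against 44.97, 35.8 and 52.0 FPKM in IgM libraries 1 to 3 (-1.02, limma adjusted p = 0.0222). Xbp1 and Creld2 lay higher in every IgG1 library than in any IgM library and were not called (0.25 and 0.29). Sdc1, Mzb1 and Derl3 had overlapping groups and were not called. The lower markers were picked by the same direction as Ptpn6, Ptprc, Samsn1 and Sh3bp2, so nothing is read from it. What these genes share was not tested. The isotype could not be checked, since 0 of the symbols Ighm and Ighg1 were among those analysed. B cell markers summed to 278 to 326 FPKM in IgG1 and 265 to 326 FPKM in IgM libraries, with Cd37 and Ms4a1 among the highest, and Pax5 was at 0 in all 6. Ptpn6, Ptprc and Inpp5d are also expressed in myeloid cells. Of 12 myeloid markers 11 were measured, and their sum was lower in IgG1 (34.5 to 45.7 FPKM) than in IgM libraries (64.2 to 69.2 FPKM), led by the lysosomal gene Cd68. S100a8, S100a9 and Mpo were at 0 in all 6, Cd14 and Adgre1 were at 0 in every IgG1 library and at most 0.0403 and 0.0171 FPKM in IgM libraries, and Csf1r had 0, 0 and 0.0162 FPKM in IgG1 libraries 1 to 3, against 2.14, 1.11 and 1.57 FPKM in IgM libraries 1 to 3. The part of such cells in the lower Ptpn6, Ptprc, Samsn1 and Sh3bp2 was not tested. Sums of T cell, dendritic cell, natural killer cell, erythroid and platelet markers were at most 5.09 FPKM in any library.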

How the data were processed

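RNA from 3 IgG1 and 3 IgM splenic plasma cell sorts was made into full-length cDNA with a SMART-Seq HT kit and into libraries by Nextera XT, per the labels' protocols. Cufflinks 2.2.1, Cuffdiff, TopHat2 2.1.1, Bowtie2 2.3.5.1 and build mm10 are named in, and credited per, the submitters' processing notes. The sources used here give no annotation, strand setting or method of scaling. The authors deposited FPKM, per the file headers, and these were scaled no further.

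The 10 genes, the pathway lists and the tests were chosen with earlier results of these data known. Genes reaching an FPKM of 1 in 3 or more of the 6 libraries were fitted as log2(FPKM + 1), which understates changes of low genes, with limma 3.58.1 (intensity trend) in R 4.3.3. P-values were adjusted by Benjamini-Hochberg over 9087 genes at 0.05. No set test was run. In the lists, called genes and the 2 with the highest mean were named, and Ptpn11 was added after its values were seen. Of the genes this rule names, 1 called gene and 1 marker are not reported here. Transcript length and GC content are medians over GENCODE vM21 basic transcripts and were found for 96.5% of tested genes. The trend was removed by loess with a span of 0.5. Alternatives changed the pseudocount, the filter, the scaling, the variance model, the replicate block, the length and GC trend and the libraries. The fit was first tested on simulated data, where it recovered 12%, 68%, 100% and 100% of log2 changes of 0.5, 1, 2 and 3. Changes were planted only in genes above a set mean level, so recovery for low genes was not measured. The noise was normal with a spread smoothed over level, without single-library gaps or a length trend.

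Depth was not given. The commonest low product of FPKM and length, taken as 1 fragment, gave the approximate fragment numbers quoted for Cd22, Cd72 and Samsn1. These rest on the assumption that FPKM steps reflect each library's own depth. Symbols above 0 numbered 10865 to 11450 in IgG1 and 11786 to 12187 in IgM libraries.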

Additional observations from a re-analysis of the deposited data

How the results depend on the processing

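Ptpn6 was called lower in IgG1 in all 19 alternatives (-2.47 to -1.87), Sh3bp2 in 18, Samsn1 in 14 and Ptprc in 12. Siglecg, Ptpn22 and Inpp5d were called in 0 of the 19. These fits reuse the libraries in which the 10 genes were chosen, so they describe only how calls depend on the processing. The direction of Inpp5d turned to -0.061 after rescaling without Jchain and ranged from -0.14 to 0.32 when 1 library was left out. Of the 10 genes, 1 (Ptpn6) was called without the filter, 2 (Ptpn6 and Sh3bp2) without the intensity trend and 2 to 4 when 1 library was left out, the lowest count without IgM library 1 or IgM library 3. A pseudocount of 0.1 ended the call of Samsn1. Among uncalled pathway genes, Cd24a turned to -0.10 under quantile normalization and -0.056 after rescaling without Jchain, Lat2 turned to -0.11 after that rescaling, and Ptprcap turned to -0.13 with the length and GC trend removed, with and without the replicate block. With 1 library left out Fcgr2b ranged from -0.30 to 0.12 and Lat2 from -0.014 to 0.22.

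Over all genes 547 were called, 70.7% of them higher. The count was 6 without the filter, 8 without the intensity trend, 202 with the length and GC trend removed, 352 with that and a replicate block, and 108 to 645 when 1 library was left out. The share called higher was 31.1% when libraries were rescaled without Jchain (median of all genes then -0.25), 48.5% under quantile normalization and 80.6% under median centring. In the 6 pathway lists 5 were called, against 0 without the filter, 0 without the intensity trend, 3 after median centring, 10 after rescaling without Jchain (2 higher, 8 lower), 7 under quantile normalization (1 higher, 6 lower, 3 of them among the 5), 3 with the trend removed, 3 with that and a replicate block, and 3 to 6 when 1 library was left out. Lax1 was called lower under quantile normalization (-0.41, limma adjusted p = 0.0354) and after rescaling without Jchain (-0.47, limma adjusted p = 0.0199), and in 0 of its other alternatives. Cd81 was called lower under quantile normalization (-0.38, limma adjusted p = 0.0245). The cause of these changes was not tested.

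The replicate block gave 586 calls over all genes, 4 among the 10 and 5 in the lists. Same-numbered libraries had correlations of deviations of 0.10, -0.03 and 0.00, and differently numbered ones of -0.098 to 0.096. With 3 libraries per group these values cannot decide whether a number marks a shared animal or day. Depth limits Cd72, which rests on about 1 to 8 fragments in IgG1 and 22 to 43 in IgM libraries.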
